A study of Homo sapiens with 6 samples.

Results

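A gene-rich stretch of the long arm of chromosome 19 was followed in counts of the human adrenocortical carcinoma line H295R. It runs from 36.18 to 48.94 Mb of hg38 chromosome 19, a length of 12.76 Mb in band 19q13. Members were the genes lying wholly within these limits with at least 60 counts summed over the 6 libraries, without symbols starting ZNF, RAB, FOX or LINC and without CYP2S1 and SULT2A1. Of 57341 named genes in the table, 624 lay in the stretch. The names removed 67 of them (60 starting ZNF) and the count minimum removed 322, of which 155 had no count, which left 235 members. Of these, 197 were matched to a reference annotation and 188 were protein coding. The stretch was chosen because most of its genes were higher in one group of libraries, so the difference between the groups is described here without a test. The removal of zinc finger genes by name was incomplete, since ZFP14, ZFP82, ZFP30, ZFP36, HKR1 and ZC3H4 remained among the members.

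The samples were 3 libraries of parental H295R cells and 3 libraries of H295R-PM-Ptc+ cells. The second population was sorted from the same line with an antibody against the Hedgehog receptor Ptch1 at the plasma membrane and then grown up. Both were cultured untreated in the same medium, and nothing in the sources used here says that replicates came from separate cultures, so the spread between them may be technical. Each population derives from 1 line, and in bulk RNA fewer cells of a kind and less RNA per cell cannot be told apart.

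PTCH1, the gene of the sorted receptor, was counted 441, 559 and 579 times in the libraries labelled as H295R. The libraries labelled as H295R-PM-Ptc+ held 248, 326 and 319 counts, all lower, with a log2 fold change of -0.81 (SE 0.147, edgeR adjusted p = 0.0207). This is against the label. The group names of all 6 columns are also the other way round in the study's own table of normalized values, and which naming is correct was not settled here. Libraries are therefore named as labelled, and every log2 fold change sets the libraries labelled as H295R-PM-Ptc+ against those labelled as H295R. The libraries held 23264403 to 25813247 counts. All 8 adrenal cortex markers passed the filter on low counts, with a summed level of 966 to 1241 CPM (counts scaled to the library size) in the libraries labelled as H295R and of 1041 to 1323 CPM in the others. Of these, 5 had a log2 fold change above 0 and 3 below, from -0.25 in CYP11A1 (SE 0.133) to 0.88 in CYP21A2 (SE 0.126), the 1 marker of the list that was called. The 6 fibroblast markers, of which 2 were tested, summed to 30.6 to 33.4 CPM against 73.7 to 78.0 CPM, and COL3A1 alone had means of 23.3 and 66.4 CPM (log2 fold change 1.51, SE 0.0737). COL1A1 was at 0.21 (SE 0.124), PDGFRA had 12, 12 and 7 counts against 4, 6 and 7, COL1A2 had 0, 3 and 1 against 3, 1 and 5, DCN had 0, 1 and 0 against 5, 1 and 3, and LUM had 0 in every library. The endothelial markers summed to at most 0.274 CPM. The part of these markers in the values of the members was not tested.

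Band 19q13 is among the most densely packed gene regions of the human genome. Families of zinc finger repressors lie there beside housekeeping genes for splicing, translation, DNA repair and the proteasome, and beside receptors, kinases and the apolipoprotein cluster. The zinc finger families there arose by local duplication, whereas most of the other genes are unrelated to their neighbors.

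The sequence before the gene start was read for the 168 members in the RefSeq promoter table, all of them identical to the hg38 genome. It is shown because the members share a position. The 250 bases before the start are given for 3 members with a higher level in the libraries labelled as H295R-PM-Ptc+ (AXL, EHD2 and SMG9) and for HNRNPL, whose groups overlapped. Capitals mark GGGCGG, the core of the GC box, and CCAAT, each on either strand, and sequences run in the direction of the gene (GRCh38.p14).
AXL (plus strand, chr19:41218973-41219222): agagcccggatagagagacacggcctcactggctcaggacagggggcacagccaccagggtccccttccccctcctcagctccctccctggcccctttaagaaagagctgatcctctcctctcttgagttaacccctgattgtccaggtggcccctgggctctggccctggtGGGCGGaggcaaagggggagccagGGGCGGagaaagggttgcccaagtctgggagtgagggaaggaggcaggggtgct
EHD2 (plus strand, chr19:47713172-47713421): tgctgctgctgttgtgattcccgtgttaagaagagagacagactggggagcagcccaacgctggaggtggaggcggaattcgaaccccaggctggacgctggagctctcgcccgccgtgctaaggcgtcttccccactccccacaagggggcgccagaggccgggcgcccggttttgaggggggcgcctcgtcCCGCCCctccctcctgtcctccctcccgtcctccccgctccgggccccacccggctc
SMG9 (minus strand, chr19:43754963-43755212): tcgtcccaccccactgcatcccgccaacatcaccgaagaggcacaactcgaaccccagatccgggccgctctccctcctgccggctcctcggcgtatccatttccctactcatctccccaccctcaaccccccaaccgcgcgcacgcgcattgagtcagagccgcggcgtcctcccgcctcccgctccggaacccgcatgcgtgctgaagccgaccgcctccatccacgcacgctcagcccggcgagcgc
HNRNPL (minus strand, chr19:38852348-38852597): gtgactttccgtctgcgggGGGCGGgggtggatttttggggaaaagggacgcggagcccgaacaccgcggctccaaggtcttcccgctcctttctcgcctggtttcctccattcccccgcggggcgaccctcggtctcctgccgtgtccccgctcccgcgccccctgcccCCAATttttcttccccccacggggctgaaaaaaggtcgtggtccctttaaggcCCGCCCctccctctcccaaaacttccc
The GC box core occurred in AXL and HNRNPL 2 times each and in EHD2 1 time, and SMG9 held neither motif. CCAAT occurred in HNRNPL alone of these 4. Over the matched members, 72.0% held GGGCGG in this window, against 42.3% of all 27305 promoters and 59.5% of the 1510 on chromosome 19. CCAAT was found in 45.2% of members, 33.0% of all promoters and 37.3% of those on chromosome 19. TATAAA was found in 5.95%, 11.1% and 6.69%, and the median GC content was 64.8%, 58.0% and 62.4%. Members had at least 60 counts, whereas the other 2 sets hold every promoter regardless of counts, the members among them. The part of this in the shares was not tested. None of the 3 motifs contains another, and a match is a description of the letters only.

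Most members were slightly higher in the libraries labelled as H295R-PM-Ptc+. Of the 234 members that passed the filter, 199 had a log2 fold change above 0 and 35 below, so that 85.0% were higher, where 50.2% of all 16710 tested genes were above 0 and 49.8% below. The median was 0.21 on the log2 scale, a ratio of 1.16, against -0.00 for the 16476 other genes. The middle 50% of members lay between 0.08 and 0.33, a width of 0.258 that the other genes also had (0.258). From the 10th to the 90th percentile the members ran from -0.09 to 0.49 and the other genes from -0.30 to 0.35. An absolute log2 fold change over 1 was reached by 4 members, CD79A, AXL, SPINT2 and NTN5, beside 2.54% of all genes.

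**Figure D1:**
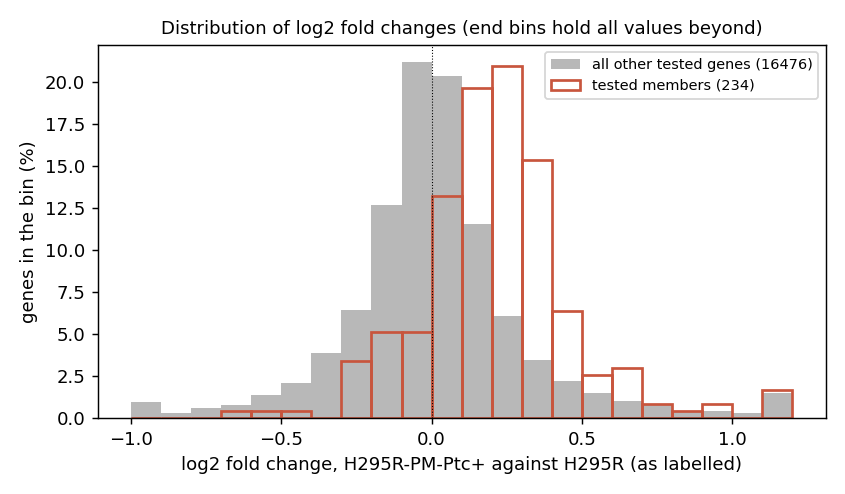
Share of genes in bins of log2 fold change (x axis, libraries labelled as H295R-PM-Ptc+ against those labelled as H295R) for the 234 tested members (red outline) and the 16476 other tested genes (gray). The members are centered at 0.21 and the other genes at -0.00, with the same width of the middle 50%.

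By adjusted p under 0.05 (edgeR), 12 members were called higher and 0 lower, where 2.42% of all tested genes were called higher and 1.32% lower. At the same threshold with the replicate number as a block, 99 were called higher and 1 lower (12.1% and 10.4% of all). No overlap in CPM between the 3 libraries of one group and the 3 of the other was seen in 88 members that were higher and 3 that were lower (12.4% and 11.2% of all). Since the members were chosen by this contrast, these counts describe them and nothing is read from them. All 3 same-numbered pairs were higher in 145 members (26.9% of all genes) and lower in 11 (25.7%). The pairs differed in size, with a median log2 ratio of 0.15 for replicates 1, 0.29 for replicates 2 and 0.22 for replicates 3, and with 72.6%, 85.0% and 83.8% of members higher.

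Summed over all 235 members, counts made up 1.39%, 1.19% and 1.31% of the libraries labelled as H295R and 1.58%, 1.45% and 1.53% of those labelled as H295R-PM-Ptc+. The means were 1.30% ± 0.101 and 1.52% ± 0.0648 (SD, n = 3), a ratio of 1.17, and the 2 groups of libraries did not overlap. Within same-numbered pairs the ratios were 1.13, 1.21 and 1.17.

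**Figure D2:**
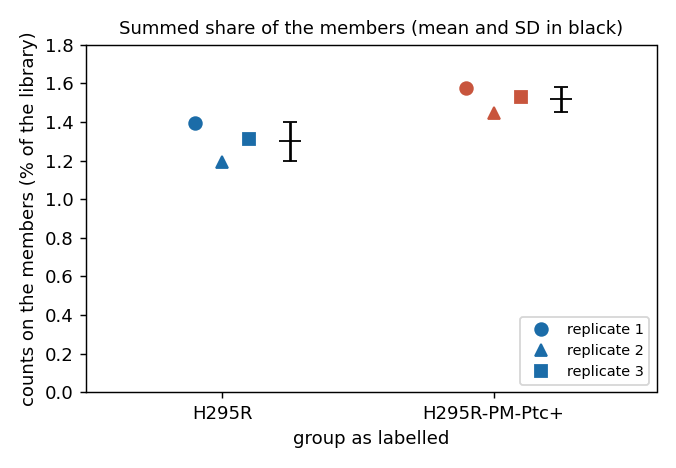
Counts on the 235 members as percent of each library (y axis, from 0) for the 6 libraries by labelled group, with the mean and SD of 3 libraries in black. The libraries labelled as H295R lie between 1.19% and 1.39% and the others between 1.45% and 1.58%.

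The higher level began inside the lower limit, and genes beyond the upper limit were mostly higher too. The last tested genes before the lower limit, POLR2I, TBCB and CAPNS1, had log2 fold changes of -0.07, 0.11 and 0.02, and the first members, ZFP14, ZFP82 and CTD-2630F21.1, had -0.11, -0.01 and 0.12. In the first 1 Mb, 2 of 6 members were higher (median -0.06). In the next 1 Mb, 9 of 11 were higher (median 0.24), and the running median over 21 neighboring tested genes was above 0 at every gene of the stretch beyond 0.201 Mb from the lower limit. Within the stretch it was highest near CYP2B7P, at 0.33 and 4.74 Mb from the lower limit, and on the whole long arm near ZNF132, at 0.43 and 22.3 Mb, beyond the upper limit. All 19 members between 4 and 5 Mb were higher (median 0.30), as were 16 of 17 between 5 and 6 Mb (median 0.35). The lowest medians after the first 1 Mb were 0.12 between 10 and 11 Mb and 0.11 between 11 and 12 Mb. At the upper limit the last members were PPP1R15A (0.21), NUCB1 (0.19) and DHDH (-0.46, SE 0.340), and the genes just outside were BAX (0.16), FTL (0.08) and GYS1 (0.21). At the count minimum, AC007193.6, CEACAMP5 and CTD-3001H11.2 were just inside with 62, 64 and 68 summed counts, and PSG9, NKPD1 and CTB-186G2.1 were just outside with 58 each.

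On the rest of chromosome 19, the 267 tested genes beyond the upper limit had a median of 0.16 and 77.9% were higher. The 86 tested genes of the long arm before the lower limit had a median of -0.14 and 30.2% were higher, and the 506 on the short arm had 0.02. The running median fell to 0.01 near TRPM4 within 1 Mb of the upper limit, and over the first 4 Mb beyond that limit 89 of 111 tested genes were above 0 (median 0.17). The genes removed by name had values like those of the members, with a median of 0.25 over 62 tested and 55 higher.

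**Figure D3:**
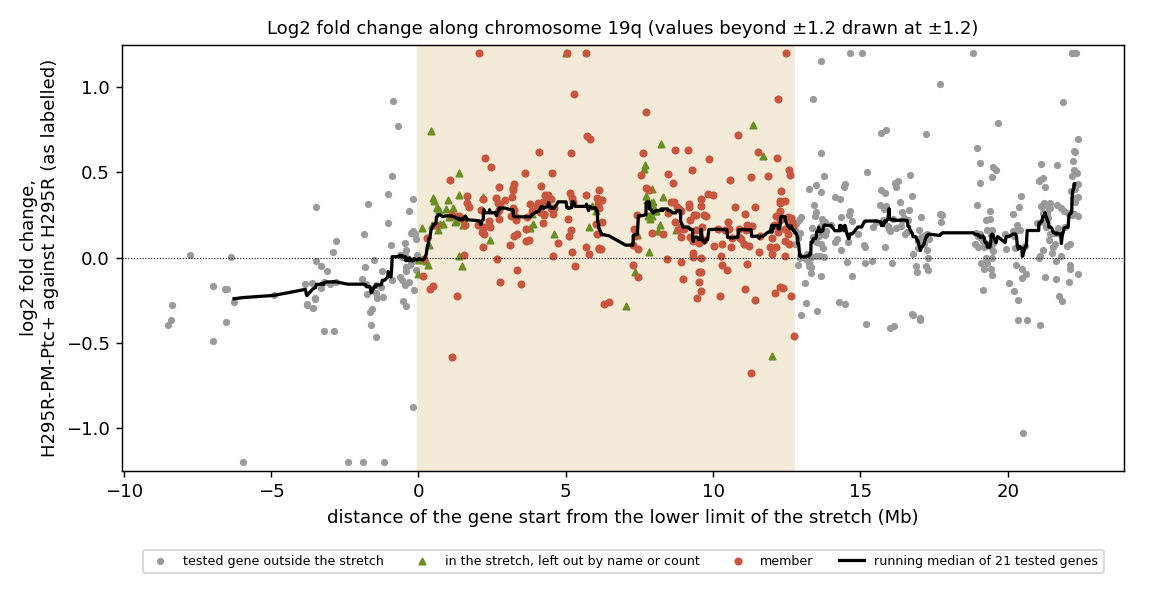
Log2 fold change (y axis) of every tested gene of the long arm of chromosome 19 against the distance of its start from the lower limit in Mb (x axis), with members in red, removed genes in green, genes outside in gray, and a running median over 21 genes in black. The line lies at or below 0.01 before the shaded stretch, rises within its first 1 Mb, falls to near 0 just past the upper limit and is above 0 again further on, with its highest value of 0.43 near the end of the arm.

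The median differed little with the expression level of the members, and the share above 0 differed more. In the lowest, middle and highest of 3 equal groups by CPM the medians were 0.22, 0.20 and 0.22, while 71.8%, 85.9% and 97.4% of members were higher. Protein-coding members were higher in 90.4% of cases, the other 46 tested members in 63.0%. The median was 0.28 for members on the plus strand and 0.17 for those on the minus strand. Across the 234 members, which share the same 6 libraries, the log2 fold change had a Pearson r of 0.07 with GC content, 0.17 with log10 length (Spearman rho 0.28), -0.05 with log2 CPM and -0.08 with position. Members had a median GC content of 58.3% and the other tested genes 48.0%. With a trend on GC content over all tested genes subtracted, the median of the members was 0.19 and 81.6% were higher.

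CD79A, a signaling chain of the B cell receptor, had the largest log2 fold change of the tested members. It was counted 11, 11 and 12 times in the libraries labelled as H295R and 169, 52 and 33 times in the others, with a log2 fold change of 2.88 (SE 0.622). All 3 were higher and spread widely, and on leaving out the library labelled as H295R-PM-Ptc+ replicate 1 the log2 fold change came to 1.92. Of 5 immune cell markers, PTPRC and CD68 had 0 counts in every library and CD3E had at most 1, and the summed level was 0.808 to 1.34 CPM in the libraries labelled as H295R and 1.68 to 1.99 CPM in the others. The part of such cells in the CD79A value was not tested.

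AXL is a receptor tyrosine kinase that binds GAS6. Its counts were 9, 18 and 19 against 76, 79 and 86, so that the groups were far apart, with 0.617 ± 0.211 and 3.29 ± 0.383 CPM (SD, n = 3) and a log2 fold change of 2.39 (SE 0.250). The tested gene next to AXL on one side, CYP2S1, which the rule leaves out, was at 2.77. HNRNPUL1 on the other side was at 0.23, and CYP2B7P, beyond CYP2S1, at 0.08. SPINT2, an inhibitor of serine proteases at the cell surface, had 84, 46 and 41 counts against 166, 149 and 135 and a log2 fold change of 1.40 (SE 0.254). Its exons overlap another gene on the same strand. The neighbors DPF1 (0.19) and YIF1B (0.28) did not share that size. PCAT19, a long non-coding RNA, had 41, 46 and 50 counts against 86, 98 and 81 (0.96, SE 0.159). CD79A, AXL, SPINT2, PCAT19, GRIN2D (0.93), NPAS1 (0.72), KLC3 (0.63) and EHD2 (0.62) were picked from members whose groups did not overlap. That their 3 libraries labelled as H295R-PM-Ptc+ lay above the 3 labelled as H295R is therefore no further result. NTN5, a netrin with a mean under 1 CPM, had 11, 5 and 12 counts against 27, 23 and 17.

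EHD2, an ATPase of caveolae, was the most abundant of these, with 78.1 ± 8.71 and 120.1 ± 2.44 CPM. The counts were 1992, 1729 and 2051 against 3063, 2933 and 2843 (log2 fold change 0.62, SE 0.0922). ACTN4, the actin-bundling alpha-actinin of non-muscle cells, was more abundant still. It had 12956, 15081 and 17137 counts against 19009, 22872 and 22787 and a log2 fold change of 0.53 (SE 0.127), with no overlap. Both stood above the median of the members.

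**Figure D4:**
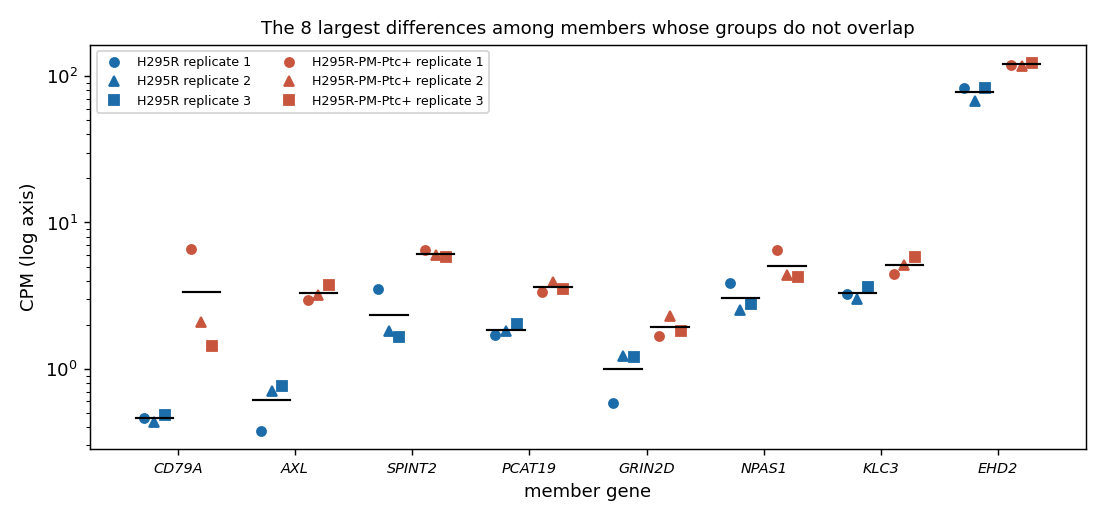
CPM (log axis) in each of the 6 libraries for the 8 members with the largest log2 fold changes among those with a mean of at least 1 CPM and groups that do not overlap, with group means as black bars. In CD79A the 3 libraries labelled as H295R-PM-Ptc+ spread from 1.42 to 6.60 CPM, and in EHD2 from 118 to 123 CPM.

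Among members with a mean of at least 1 CPM whose groups did not overlap, the lowest log2 fold changes were those of CTB-50E14.5 at -0.27, the 1 below 0, and then SAE1 (0.11), GEMIN7 (0.12), EID2 (0.14), KDELR1 (0.15), PPP5C (0.17), SYMPK (0.18) and FAM98C (0.18). SAE1 came to 0.06 on leaving out H295R replicate 1, KDELR1 to 0.09 on leaving out H295R replicate 2 and FAM98C to 0.11 on leaving out H295R replicate 3. SAE1, a subunit of the SUMO-activating enzyme, had 7791, 9247 and 8836 counts against 9477, 9451 and 8766. These raw counts overlap, whereas its levels in CPM, by which overlap was judged, do not. The highest levels per length were in RPS16, CALM3, SNRPD2, RPS19, RPL18, KDELR1, FBL and ACTN4. RPS16, a protein of the small ribosomal subunit, was at 193 and 211 RPKM (CPM per kilobase of gene model) in the 2 groups. SNRPD2, a core protein of the spliceosome, was at 186 and 175 RPKM and had a log2 fold change of -0.09 (SE 0.0905), which came to between -0.15 and -0.02 on leaving out 1 library. ACTN4 had the largest log2 fold change of these 8.

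Grouped by function, all 13 lists had a median above 0, between 0.13 and 0.37. The lists were written with earlier results of these data known, and the median over all tested genes was 0.00. Ribosome and translation genes were lowest, with a median of 0.13 and 10 of 10 above 0. RPS19, a ribosomal protein, was at 0.07 (SE 0.120), RPL18 at 0.01 (SE 0.122), and the rRNA methyltransferase FBL at 0.10 (SE 0.0818), each with overlapping groups. On leaving out 1 library these came to between -0.05 and 0.17 in RPS19, between -0.09 and 0.12 in RPL18, and between 0.05 (H295R replicate 2) and 0.17 (H295R replicate 1) in FBL. Ribosomal protein genes have many processed copies, and reads of such copies could be divided between them. The part of such copies in these values was not tested.

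Of 15 genes for transcription and mRNA processing, 13 were above 0 (median 0.19) and 3 were among the 12 called higher, where 2.42% of all tested genes were. None of these 3 was called on leaving out H295R replicate 2 or H295R-PM-Ptc+ replicate 2 or 3, and SUPT5H and MED29 were not called on leaving out H295R replicate 3. With the replicate block 9 of the 15 were called higher, where 12.1% of all were. SUPT5H, a subunit of the elongation factor DSIF, had 3206, 3850 and 4009 counts against 4955, 5027 and 4827 (0.43, SE 0.0873). MED29, a subunit of the Mediator complex, had 2584, 2616 and 2636 counts against 3587, 3390 and 3270 (0.40, SE 0.0681). SMG9, which regulates the nonsense-mediated decay kinase, had 971, 1053 and 1142 against 1491, 1530 and 1388 (0.49, SE 0.0774). In each of these 3, which were called on the same contrast, the groups did not overlap. Without overlap, 8 of the 15 were higher, where 12.4% of all tested genes were. HNRNPL, a splicing regulator, was at -0.01 (SE 0.0750) with 7851, 9131 and 8775 counts against 8510, 8867 and 8047. It is 1 of 36 members whose exons overlap another gene on the same strand, as is SPINT2.

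All 11 mitochondrial genes were above 0 (median 0.28). BCAT2, the mitochondrial branched-chain aminotransferase, had 1005, 849 and 861 counts against 1461, 1144 and 1186 (0.49, SE 0.113). TOMM40, the channel of the outer membrane translocase, was at 0.21 (SE 0.0763) and the enoyl-CoA isomerase ECH1 at 0.35 (SE 0.111). None of the 11 was among the 12, but 8 were called higher with the replicate block, where 12.1% of all tested genes were. Of 4 DNA repair genes (median 0.17), the helicase gene ERCC2 was at 0.31 (SE 0.0862), ERCC1 at 0.22, XRCC1 at 0.13 and the ligase gene LIG1 at 0.06. On leaving out 1 library ERCC1 came to between 0.13 (without H295R-PM-Ptc+ replicate 1) and 0.29, XRCC1 to between 0.05 (without H295R replicate 2) and 0.18, and LIG1 to between 0.00 (without H295R replicate 1 or H295R-PM-Ptc+ replicate 3) and 0.13. Of 4 genes for cell death and p53 partners (median 0.14), PPP1R13L was at 0.30 and BBC3, which encodes PUMA, at 0.08 (SE 0.192). Of 6 genes for the proteasome, ubiquitin and SUMO (median 0.21), PSMD8 was at 0.34 (SE 0.0950), PSMC4 at 0.32 and FBXO17 at -0.14, which came to -0.08 on leaving out H295R replicate 1 and to -0.21 on leaving out H295R-PM-Ptc+ replicate 1.

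Kinases had a median of 0.33 and 13 of 13 above 0. AKT2, a kinase of insulin signaling, had 4437, 3998 and 4443 counts against 5593, 5258 and 5180 (0.32, SE 0.0836). GSK3A, a kinase of glycogen and Wnt signaling, had 2101, 2037 and 2204 against 2861, 2668 and 2503 (0.35, SE 0.0740). ITPKC, an inositol trisphosphate kinase, was at 0.49 (SE 0.115) and DYRK1B at 0.17 (SE 0.164). DYRK1B came to 0.00 on leaving out H295R-PM-Ptc+ replicate 1 and to 0.34 on leaving out H295R replicate 1. The groups overlapped in DYRK1B and not in AKT2, GSK3A or ITPKC. Without overlap, 8 of the 13 kinases were higher, where 12.4% of all tested genes were.

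The list of growth factors, surface receptors and adhesion genes had 12 of 13 above 0 (median 0.29). Besides AXL and SPINT2, the laminin receptor gene BCAM had 810, 702 and 766 counts against 1047, 978 and 1049 (0.44, SE 0.0969). LTBP4, which binds latent TGF-beta, was at 0.34 (SE 0.0995), the poliovirus receptor gene PVR at 0.26 (SE 0.0761), and TGFB1 itself at 0.13 (SE 0.129) with overlapping groups. The urokinase receptor gene PLAUR was at -0.11 (SE 0.221), and between -0.27 and 0.11 on leaving out 1 library. Of 7 apolipoprotein and lipid enzyme genes (median 0.33), PLD3 was at 0.42 (SE 0.104), SULT2B1 at -0.18 (SE 0.395) and APOE, counted 23, 10 and 15 times against 43, 22 and 10, at 0.63 (SE 0.491). The groups of APOE overlapped, and its log2 fold change came to 0.02 on leaving out H295R-PM-Ptc+ replicate 1 and to 1.01 on leaving out H295R replicate 1. That of SULT2B1 came to 0.34 on leaving out H295R replicate 1.

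All 15 transcription regulators other than zinc fingers were above 0 (median 0.25). NFKBIB, an inhibitor of NF-kappa-B, was at 0.41 (SE 0.0992) and the repressor gene CIC at 0.31 (SE 0.102), and neither overlapped. Without overlap, 9 of the 15 were higher, where 12.4% of all tested genes were. RELB was at 0.17 (SE 0.197) and SIX5 at 0.00 (SE 0.128). RELB came to 0.00 on leaving out H295R-PM-Ptc+ replicate 1, to 0.04 on leaving out H295R replicate 1 and to 0.31 on leaving out H295R-PM-Ptc+ replicate 3, and SIX5 ranged from -0.12 to 0.15 over such fits. The 7 zinc finger genes without the ZNF prefix had a median of 0.19, with ZFP36, which promotes decay of AU-rich mRNAs, at 0.41 (SE 0.122) and HKR1 at 0.25 (SE 0.0833). Vesicle traffic genes had a median of 0.19 over 9, and ion channel, pump and calcium genes 0.37 over 6. CCDC97 was in no list and was among the 12, at 0.38 (SE 0.0683).

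**Figure D5:**
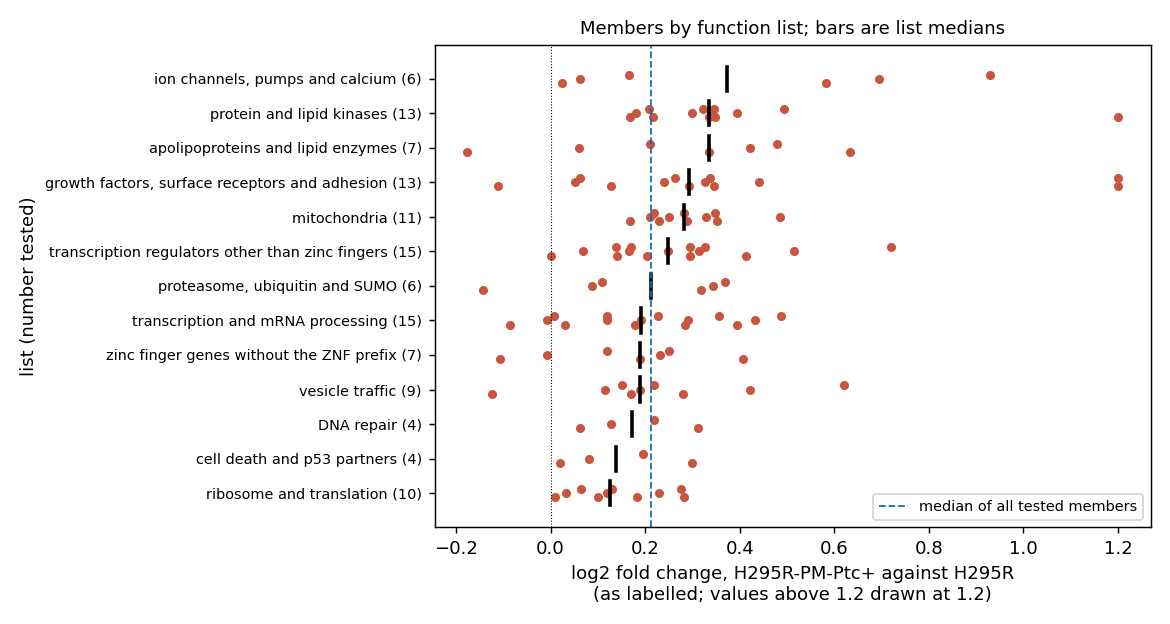
Log2 fold change (x axis) of the tested members of 13 function lists (y axis, with the number tested), with list medians as black bars and the median of all tested members, 0.21, as a dashed line. Every list median lies above 0, from 0.13 for ribosome and translation to 0.37 for ion channels.

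The replicate number was not used to choose the members and can be tested. With edgeR's quasi-likelihood test of the replicate number beside the group, 67 of 234 members (28.6%) differed between replicate numbers, where 26.0% of all tested genes did. With at least 10 counts in every library the shares were 33.8% of members and 29.0% of all genes. On leaving out 1 library they were 19.1% to 37.6% and 17.9% to 29.4%. With no filter on low counts they were 34.9% and 15.9%. That fit kept every gene with a count, whereas members had at least 60, so these 2 shares are not alike. The median log2 difference of the members was -0.17 for replicate 2 against replicate 1 and -0.09 for replicate 3 against replicate 1. Other genes had -0.01 and -0.01, and the short arm of chromosome 19 had -0.16 and -0.07. The smallest adjusted p were in DBP, ARHGAP35 and GLTSCR2, named here after their values were seen. DBP, a circadian transcription factor, had 1923, 1068 and 1174 counts in the libraries labelled as H295R and 2068, 1363 and 1281 in the others, so replicate 1 was highest in both groups (edgeR adjusted p = 4.52e-06). HSD17B14, a hydroxysteroid dehydrogenase, had 704, 483 and 482 counts against 617, 404 and 410, with the same order, and it was the 1 member called lower with the replicate block.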

How the data were processed

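Paired reads were obtained from 3 replicates each of H295R and H295R-PM-Ptc+ cells. The authors mapped the reads to hg38 with STAR 2.4.0a, and the deposited counts are raw fragment counts per gene name from featureCounts on an Ensembl annotation, with the primary alignment kept for reads that map more than once (Subread 1.5.0-p3 in the submitters' notes; the paper names another version). The sources name a stranded mRNA kit and a stranded total RNA kit. In 605 of 678 pairs a gene had a higher RPKM than its partner with the suffix AS1, so the counts lie on the sense strand. A row without a name held 0 counts and was dropped.

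Counts were fitted over all 16710 genes passing filterByExpr with edgeR 4.0.16 (R 4.3.3, TMM, glmQLFit, glmQLFTest, two-sided, group as only term, Benjamini-Hochberg). SE came from the same fit, CPM and RPKM from TMM-scaled library sizes, and ratios within pairs from CPM plus 0.1. Fits were tested on simulated data. Tables were handled with Python 3.11.15, pandas 2.3.3, statsmodels 0.14.6 and matplotlib 3.10.9. Alternatives were DESeq2 1.42.0, limma-voom (limma 3.58.1), other scalings, filters and member sets, loess trends (0.3 of genes per window), a replicate block and leaving out libraries.

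Deviations of log2 CPM from group means correlated at 0.497, 0.307 and 0.228 for same-numbered replicates and at -0.352 to 0.150 for the others, so the numbers pair the samples. Members and gene lists were chosen with earlier results of these data known. The naming rule took list members, the 8 largest and 8 smallest log2 fold changes among members of at least 1 CPM whose groups do not overlap, the 8 highest RPKM, the 3 genes on each side of a limit, and PTCH1.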

Additional observations from a re-analysis of the deposited data

How the results depend on the processing

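The median log2 fold change of the tested members lay between 0.17 and 0.26 under 21 alternatives (0.17 to 0.26 on leaving out 1 library). The share of members above 0 lay between 76.2% and 92.1%. It was 76.2% to 89.3% on leaving out 1 library, with the lowest value without H295R replicate 2, and 92.1% with at least 600 summed counts. With the replicate number as a block, which uses the pairing, the median was 0.21 and the share 84.6%, and 99 members were called higher and 1 lower (12.1% and 10.4% of all tested genes). DESeq2 called 27 higher (3.37% of all), and the fit with no filter on low counts 28 (2.25% of all genes with a count). The fit without both replicate 1 libraries, chosen after seeing the data, called 65 (6.67%). Leaving out 1 library gave 2 to 28 calls of higher members (28 without H295R replicate 1, 2 without H295R replicate 2 and 3 without H295R replicate 3, and 2 and 3 without H295R-PM-Ptc+ replicates 2 and 3) and 0 of lower ones, beside 0.943% to 3.10% of all called higher. AXL and EHD2 were called in all 6 of these fits. For the replicate number, DESeq2 called 33 members (14.1%, beside 14.9% of all tested genes), and leaving out 1 library gave 45 to 88 (19.1% to 37.6%, beside 17.9% to 29.4% of all). The causes were not tested. The log2 ratio of summed shares was 0.22, and 0.23 with counts outside chromosome 19 as the total.

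Of 767 alternative values of 64 named genes, 69 moved by more than the spread between pairs. On leaving out 1 library the values of TGFB1 lay between 0.01 and 0.25, of BBC3 between -0.14 and 0.18 and of RPS16 between 0.04 and 0.23. The sign changed in 20, all in BBC3, HNRNPL, HSD17B14, PLAUR, RPL18, RPS19, SIX5, SULT2B1 and ZFP82, whose log2 fold changes were at most 0.22 in size. In APOE (SE 0.491) and SULT2B1 (SE 0.395), members under or near 1 CPM, the SE was larger than the median of the members (0.21). More abundant members near that median were not all called either. TOMM40 (0.21) and HNRNPUL1 (0.23) had edgeR adjusted p of 0.193 and 0.154, and of 0.0018 and 0.0011 with the replicate block. The part of depth in these limits was not tested.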
